A study of Homo sapiens with 2 samples.

Results

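The miR-25, miR-32 and miR-92 family is a set of microRNAs (miRNAs) with the same seed. It was measured in 2 small RNA libraries of UM-SCC6, a human cell line from an oral squamous cell carcinoma. Its 5 members, miR-25-3p, miR-32-5p, miR-92a-3p, miR-92b-3p and miR-363-3p, were found by exact name among the 1213 entries of the authors' deposited table. They were picked as a family because miR-32-5p and miR-92a-3p lay in opposite directions in this same table, so their own levels and ratios are given as a description, without any test. UM-SCC6-M was grown from invasion front cells that crossed a matrix channel of a microfluidic chip, collected over 3 rounds of selection and regrown in a dish between rounds. The labels call these cells highly invasive, with some mesenchymal traits. UM-SCC6 was the parental line, not passed through the chip. Whether UM-SCC6-M is a single clone is not given in the sources used here. Each group had 1 library, and none of the differences could be checked in replicates. Bulk RNA was used, and fewer cells of a kind cannot be told apart from less of a miRNA per cell.

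A miRNA guides the silencing complex to messenger RNAs mainly by pairing of its seed, bases 2 to 8 from its 5′ end, with sites in the 3′ untranslated region. miRNAs with the same seed can therefore meet the same sites, and their levels are often considered together. miR-92a and miR-25 are products of the miR-17-92a-1 and miR-106b-25 clusters, which are known as growth-promoting miRNA clusters in many carcinomas and repress, among others, the pro-apoptotic gene BCL2L11. miR-32 comes from a hairpin of its own.

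The sequences below show what the members share, the seed in capitals, and how they differ after it. They are RefSeq mature sequences (GRCh38.p14), each 22 bases long, so no correction for length was made. How well each sequence was captured in the libraries was not measured, so different members are compared as reads only.
miR-25-3p: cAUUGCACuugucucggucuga
miR-92a-3p: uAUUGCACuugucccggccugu
miR-92b-3p: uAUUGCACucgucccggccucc
miR-32-5p: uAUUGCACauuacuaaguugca
miR-363-3p: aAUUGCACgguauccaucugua
The matching 7-base site, computed as the reverse complement of the seed, reads GUGCAAU. miR-92a-3p and miR-92b-3p were the closest pair, identical at 19 of 22 positions. From miR-92a-3p to miR-92b-3p the differences are U10C, G21C and U22C, counted from the 5′ end. miR-25-3p and miR-92a-3p matched at 18 positions. miR-32-5p matched miR-92a-3p at 11 positions, and only 3 of the 14 positions after the seed were the same. Its bases were 31.8% G or C, against 54.5% in miR-92a-3p, 63.6% in miR-92b-3p and 50% in miR-25-3p. RefSeq holds 6 mature names with this seed. The sixth, miR-367-3p, had no entry under that name and is not analysed here.

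The hairpins lie at 6 loci of GRCh38. MIR32 (chr9:109046229-109046298, minus strand) lies in an intron of TMEM245, a gene for a transmembrane protein, in all 3 GENCODE transcripts that span it. MIR25 (chr7:100093560-100093643, minus strand) lies in an intron of MCM7, a subunit of the replicative DNA helicase, beside MIR93 and MIR106B. miR-92a-3p comes from 2 hairpins with the same mature sequence, so its reads do not tell which was their source. MIR92A1 (chr13:91351314-91351391, plus strand) is the last hairpin of the host RNA MIR17HG and overlaps an exon of 2 of its 3 spanning transcripts. MIR92A2 (chrX:134169538-134169612, minus strand) stands next to MIR363 (chrX:134169378-134169452, minus strand). MIR92B (chr1:155195177-155195272, plus strand) lies 316 bases from THBS3, a thrombospondin gene on the opposite strand.

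Values are normalized reads, the read signal as scaled by the authors. The entries of the deposited table held 7699490 reads for UM-SCC6-M and 8182958 for UM-SCC6, as recovered from the step of the scaled values. Reads outside these entries are not known, so shares of a library given below are shares of these recovered reads. Intervals are exact 95% intervals of counting error, and they leave out any variation between cultures or library preparations. Reads copied by PCR are not independent molecules. Of the 8 epithelial and squamous marker miRNAs looked for, 6 had an entry, and miR-200b-3p led them at 17481 normalized reads in UM-SCC6-M and 12823 in UM-SCC6. miR-200c-3p had 15 reads in UM-SCC6-M and 20 in UM-SCC6, and miR-203a-3p had 23 in UM-SCC6-M and 7 in UM-SCC6, so 2 of the markers that define such epithelium were near 0 in both libraries. miR-200a-3p lay in the other direction from miR-200b-3p, with 1344 normalized reads in UM-SCC6-M and 2674 in UM-SCC6, 1.99-fold lower. miR-429 and miR-31-5p had log2 ratios of -0.09 and -0.07. The sum of the 6, 19717 in UM-SCC6-M and 16443 in UM-SCC6, was mostly miR-200b-3p, and the list's median log2 ratio, over its 4 miRNAs past 10 normalized reads, was -0.08. The remaining names, miR-141-3p and miR-205-5p, are not analysed here.

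In the UM-SCC6-M library, miR-92a-3p and miR-92b-3p took larger shares of the family's reads than in UM-SCC6. miR-25-3p took a smaller share, 40.1% against 50.3%, as did miR-32-5p, 0.220% against 2.90%. In level, miR-32-5p was 9.61-fold lower, miR-92a-3p and miR-92b-3p were 1.74-fold and 1.76-fold higher, and miR-25-3p was 1.09-fold higher. miR-363-3p was listed at 0 in both libraries. The level plot shows the values of each library.

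**Figure D1:**
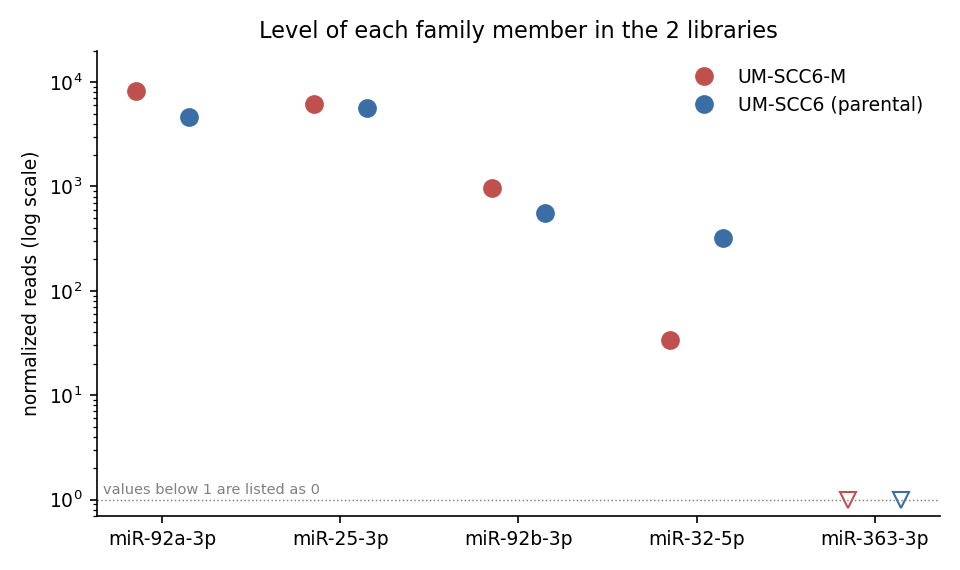
Normalized reads (log axis) of the 5 family members in the UM-SCC6-M library (red) and the UM-SCC6 library (blue), 1 library each; open triangles mark values listed as 0. miR-32-5p stood at 33.7 against 324, whereas miR-92a-3p stood at 8149 against 4671.

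miR-92a-3p, the cluster product with the most reads of the family in UM-SCC6-M, had 8149 normalized reads in UM-SCC6-M and 4671 in UM-SCC6. These values rest on 68244 reads in UM-SCC6-M and 35148 in UM-SCC6. The log2 ratio of UM-SCC6-M over UM-SCC6 was 0.80, with an interval of 0.78 to 0.82. It was the miRNA of rank 15 in the UM-SCC6-M library and of rank 28 in the UM-SCC6 library.

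miR-92b-3p, the near copy from chromosome 1, had 978 normalized reads in UM-SCC6-M and 554 in UM-SCC6. Its log2 ratio was 0.82 (0.77 to 0.87). There were 8.34 reads of miR-92a-3p per read of miR-92b-3p in UM-SCC6-M and 8.43 in UM-SCC6, and the difference of their log2 ratios was -0.02, with an interval of -0.07 to 0.04. A difference between these 2 ratios was not detectable at this depth. How the authors assigned reads that fit both names is not given in the sources used here.

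miR-25-3p had 6138 normalized reads in UM-SCC6-M and 5627 in UM-SCC6. Its log2 ratio was 0.13 (0.11 to 0.14), the nearest to 0 of the 4 members with reads. A floor of 50 normalized reads in whichever library was higher left 179 miRNAs, of which 101 had a lower ratio and 77 a higher one.

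miR-32-5p had 33.7 normalized reads in UM-SCC6-M and 324 in UM-SCC6. These came from 282 reads in UM-SCC6-M and 2440 in UM-SCC6. It was 9.61-fold lower in UM-SCC6-M (8.51 to 10.9), a log2 ratio of -3.27 (-3.45 to -3.09). None of the other 178 miRNAs at that floor had a lower ratio. In rank of abundance it stood at 186 in UM-SCC6-M and at 105 in UM-SCC6.

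miR-363-3p, a product of the chromosome X cluster, was listed at 0 in both libraries. Values below 1 normalized read are listed as 0, and the smallest listed values were of 9 reads in UM-SCC6-M and 8 in UM-SCC6. A listed 0 can therefore stand for up to 8 and up to 7 reads, and no ratio is given for this member.

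By a rule of size, a difference of 2-fold or more among miRNAs past that floor, 1 member was lower and none was higher in UM-SCC6-M. Over all 179 miRNAs, 20.1% were 2-fold or more apart in either direction, 12.8% lower and 7.26% higher. At 1.5-fold, 2 members were higher and 1 lower, where 43.6% of the 179 were apart, 17.9% higher and 25.7% lower. The members were chosen on this contrast, so nothing is read from these counts. When total reads set the scale instead, every log2 ratio moves up by 0.24. miR-92a-3p and miR-92b-3p then reached log2 ratios of 1.05 and 1.06, past 2-fold, and miR-32-5p stood at -3.02. Of the 179 miRNAs, 22 were then at least 2-fold higher and 20 at least 2-fold lower, against 13 and 23 at the authors' scaling. In the authors' deposited table, miR-32-5p stands at a log2 fold change of -3.27 (q-value 1.13e-50), and it is the 1 member among the 44 entries that they marked. The marked entries in the authors' deposited table reach at least 1.01 in the size of their log2 fold change, with q-values up to 0.00828. In the authors' deposited table miR-92a-3p has a log2 fold change of 0.80 with a q-value listed as 0, and is not marked. These q-values compare 2 libraries, not 2 conditions. The 44 marked are among 854 entries with a deposited fold change, which include every member with reads. Nothing is read from the mark of 1 member.

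**Figure D2:**
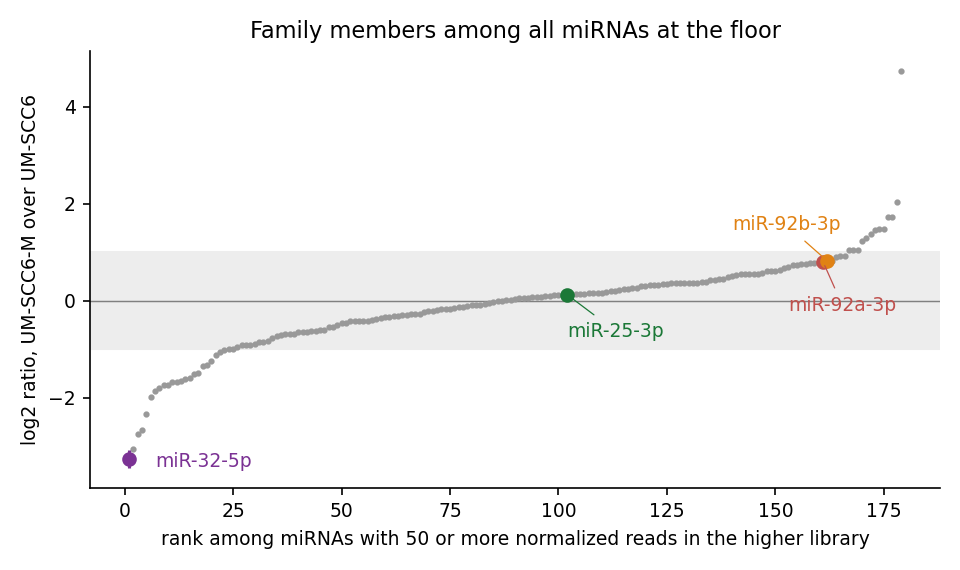
Log2 ratio of UM-SCC6-M over UM-SCC6 (y axis) for the 179 miRNAs past the floor of 50 normalized reads, ordered by ratio (x axis, rank); coloured points with 95% counting intervals are family members and the grey band spans 2-fold. miR-32-5p lies at the low end at -3.27, and miR-92a-3p and miR-92b-3p lie side by side at 0.80 and 0.82.

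Ratios between members within a library do not depend on the scaling. For each read of miR-32-5p there were 242 reads of miR-92a-3p in UM-SCC6-M and 14.4 in UM-SCC6. The difference of their log2 ratios was -4.07, with a counting standard error of 0.09. This pair was chosen for that difference. Against miR-25-3p the difference of miR-32-5p was -3.39 (-3.57 to -3.21), so it also lay below the member whose ratio was nearest to 0. miR-92a-3p exceeded miR-25-3p by 0.68 on the same scale (0.65 to 0.70).

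The order of the members changed at the top. In UM-SCC6-M, miR-92a-3p held 0.886% of all recovered reads (0.880 to 0.893) and miR-25-3p 0.668% (0.662 to 0.673). In UM-SCC6, miR-25-3p came first with 0.517% (0.513 to 0.522) and miR-92a-3p second with 0.430% (0.425 to 0.434). miR-92b-3p was next in both, with 0.106% in UM-SCC6-M and 0.0510% in UM-SCC6. miR-32-5p was last of the 4, with 0.00366% in UM-SCC6-M and 0.0298% in UM-SCC6. No neighbours in either order overlapped in their counting intervals, which do not cover how well each sequence was captured.

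Summed over the family, the shared seed was carried by 128118 reads in UM-SCC6-M and 84103 in UM-SCC6. The seed took 1.66% of all recovered reads in UM-SCC6-M (1.65 to 1.67), against 1.03% in UM-SCC6 (1.02 to 1.03). The summed level was 15298 normalized reads in UM-SCC6-M and 11176 in UM-SCC6, 1.37-fold higher in UM-SCC6-M, with a log2 ratio of 0.45. Ranked by summed reads among 402 seeds of the miRNAs that matched RefSeq by name, this seed was number 7 in UM-SCC6-M and number 12 in UM-SCC6. The summed level was higher in UM-SCC6-M although miR-32-5p was lower, and miR-32-5p was a minor member in both libraries.

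Within the family, miR-92a-3p made up 53.3% of the reads in UM-SCC6-M and 41.8% in UM-SCC6. miR-25-3p made up 40.1% in UM-SCC6-M and 50.3% in UM-SCC6. The share of miR-92b-3p was 6.39% in UM-SCC6-M and 4.96% in UM-SCC6. That of miR-32-5p was 0.220% in UM-SCC6-M (0.195 to 0.247) and 2.90% in UM-SCC6 (2.79 to 3.02). Both miR-92 names thus took a larger share in UM-SCC6-M, and miR-25-3p and miR-32-5p a smaller one.

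**Figure D3:**
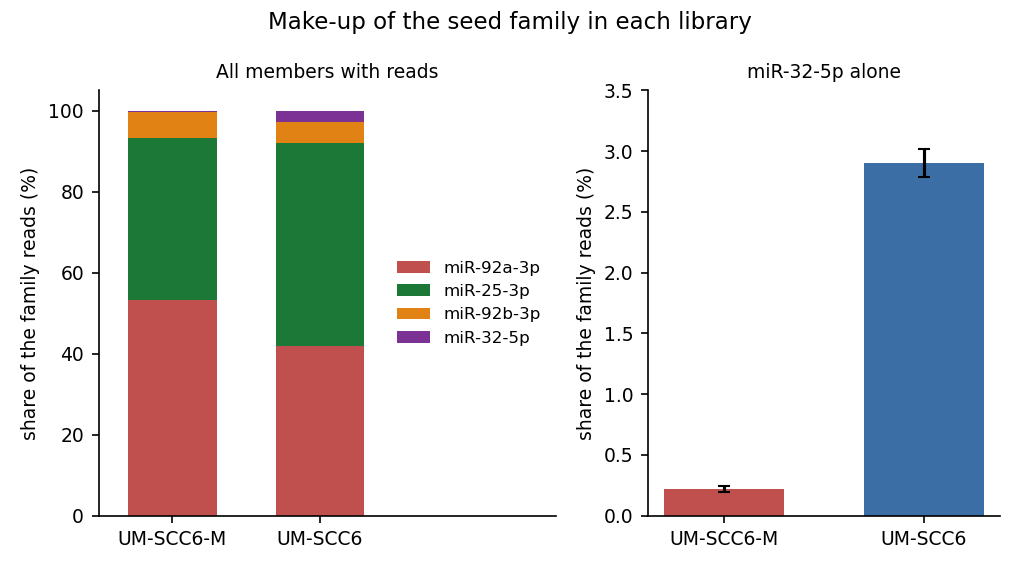
Share of the family's reads (percent) held by each member in the UM-SCC6-M and UM-SCC6 libraries (left panel, stacked bars) and the share of miR-32-5p alone with its 95% counting interval (right panel). The miR-92a-3p share was 53.3% in UM-SCC6-M against 41.8% in UM-SCC6, and that of miR-32-5p 0.220% against 2.90%.

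The level of the other arm of each hairpin was not used to choose the members, but an arm balance also holds the level of the member itself. For miR-32 it therefore contains the value the family was chosen for, and its balance and its place among other hairpins are a description. The MIR32 hairpin is printed with both mature arms in capitals, 5p first, because its arm balance differed most between the libraries among the family's hairpins.
MIR32: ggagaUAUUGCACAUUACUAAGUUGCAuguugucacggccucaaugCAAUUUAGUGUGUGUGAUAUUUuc
miR-32-3p had 20.2 normalized reads in UM-SCC6-M and 31.2 in UM-SCC6, and was 1.55-fold lower (1.26 to 1.90). The 2 arms of this hairpin thus both had lower values in UM-SCC6-M, but by different amounts. The 5p arm held 62.5% of the reads of the hairpin in UM-SCC6-M (57.9 to 67.0) and 91.2% in UM-SCC6 (90.1 to 92.3). The log2 ratio of 5p to 3p reads was 0.74 in UM-SCC6-M and 3.37 in UM-SCC6, a difference of -2.64 with a counting standard error of 0.17. Arms were paired only where their names differ in nothing but 5p or 3p. Of the 70 hairpins paired so, with both arms past a floor of 10 normalized reads, none had a larger difference in either direction. Hairpins with otherwise numbered arm names, such as miR-92a-1-5p with miR-92a-3p, are not among the 70, and their place was not looked at. The median size was 0.67, and miR-30a was next at 1.97. Of these 70 hairpins, 20 differed by 1 or more.

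The arm balance of the other hairpins of the family differed less. For miR-92b, the 5p arm had 50.6 normalized reads in UM-SCC6-M and 27.1 in UM-SCC6, a log2 ratio of 0.90 (0.66 to 1.15), near the 0.82 of its 3p arm. The arm balance of miR-92b differed by 0.08, with an interval of -0.17 to 0.33. For miR-25, the 5p arm had 35.7 normalized reads in UM-SCC6-M and 27.9 in UM-SCC6, and the balance differed by 0.23 (-0.03 to 0.48). miR-92a-1-5p, which comes only from the chromosome 13 hairpin, had 58 reads in UM-SCC6-M and 17 in UM-SCC6. It was 3.00-fold higher (1.76 to 5.62), at a level below the floor of the size rule. The balance of this arm against miR-92a-3p, whose reads come from both hairpins, differed by 0.78 (0.01 to 1.55). miR-92a-2-5p and miR-363-5p had no entry and are not analysed here.

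**Figure D4:**
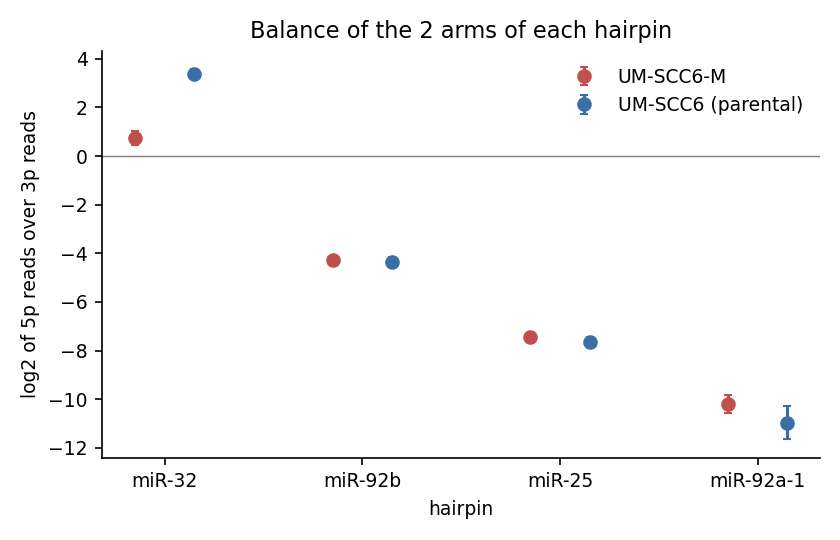
Log2 of 5p reads over 3p reads (y axis) for 4 hairpins of the family in the UM-SCC6-M library (red) and the UM-SCC6 library (blue), with 95% counting intervals from the standard error of the log ratio. The miR-32 hairpin stood at 0.74 in UM-SCC6-M against 3.37 in UM-SCC6, while miR-92b stood at -4.27 against -4.35.

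Hairpins of a cluster are cut from one primary transcript, and the neighbours of the members were compared next. In the miR-17-92a-1 cluster, 9 of 10 neighbour names had an entry and 5 reached 10 normalized reads. Their median log2 ratio was 0.09, against -0.08 over all 288 miRNAs at that floor. miR-19b-3p had 161 normalized reads in UM-SCC6-M and 110.03 in UM-SCC6, a log2 ratio of 0.55 (0.42 to 0.68). miR-17-5p, which targets cell cycle inhibitors, had 1406 normalized reads in UM-SCC6-M and 1085 in UM-SCC6 and a ratio of 0.37 (0.33 to 0.41). miR-20a-5p, of the same seed, had 2781 in UM-SCC6-M and 2610 in UM-SCC6 and a ratio of 0.09 (0.06 to 0.12). miR-19a-3p stood at -0.26 and miR-18a-5p at -0.60. None of the 5 was 2-fold apart, where 21 of the 288 miRNAs were 2-fold higher and 45 were 2-fold lower. miR-92a-3p at 0.80 lay above all 5, but it was chosen on this contrast, so its place is a description.

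In the miR-106b-25 cluster all 4 neighbour names reached 10 normalized reads, with a median log2 ratio of 0.03. miR-93-5p had 2331 normalized reads in UM-SCC6-M and 2354 in UM-SCC6, a ratio of -0.01 (-0.04 to 0.02). miR-106b-3p had 1425 in UM-SCC6-M and 1345 in UM-SCC6 and a ratio of 0.08 (0.05 to 0.12). miR-93-3p lay at 0.20 (-0.09 to 0.49). miR-106b-5p was the lowest, with 251 normalized reads in UM-SCC6-M and 368 in UM-SCC6 and a ratio of -0.55 (-0.63 to -0.47). miR-25-3p at 0.13 lay among these values.

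The chromosome X cluster is the other possible source of miR-92a-3p. It also holds MIR19B2, a further hairpin for miR-19b-3p, so the reads of that name, like those of miR-92a-3p, cannot be assigned to either cluster. Of the 7 neighbour names that belong to the chromosome X cluster alone, 1 had an entry. This was miR-106a-5p, a near copy of miR-17-5p, with 15 reads in UM-SCC6-M and 10 in UM-SCC6, too few to show a difference. From which hairpin the miR-92a-3p reads came was not tested.

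**Figure D5:**
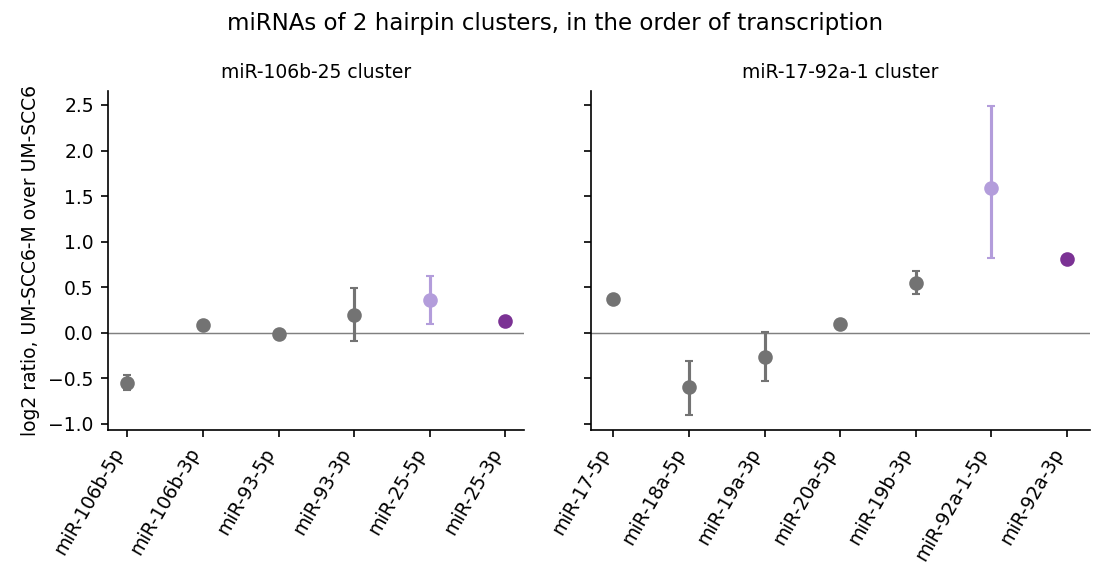
Log2 ratio of UM-SCC6-M over UM-SCC6 (y axis) with 95% counting intervals for miRNAs of the miR-106b-25 and miR-17-92a-1 clusters (x axis, in the order of transcription); dark purple marks family members, light purple their other arms, grey the neighbours. miR-92a-3p at 0.80, chosen on this contrast, lies above the 5 neighbours of its cluster, which span -0.60 to 0.55.

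Seed families with members far apart were looked for in the whole table. Of the seeds in RefSeq, 23 had 2 or more miRNAs past the floor of 50 normalized reads. The 4 members of the present family with reads spanned 4.08 in log2 ratio, and no other family spanned more. The other families had a median range of 0.59, and the next widest were miR-29b-3p with miR-29a-3p at 2.37 and miR-200a-5p with miR-200b-5p at 2.28. The family was chosen for members that lay apart, so this is a description. Only names that matched RefSeq entered, 480 of 555.

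The miRNAs nearest to miR-32-5p in log2 ratio, over the 2 libraries, were miR-29b-3p at -3.06, miR-7974 at -2.75 and miR-218-5p, named in the series title, at -2.66. miR-29b-3p, a repressor of collagen transcripts, had 43.8 normalized reads in UM-SCC6-M and 366 in UM-SCC6. miR-218-5p had 16.0 in UM-SCC6-M and 102 in UM-SCC6. The nearest to miR-92a-3p outside the family were miR-200b-5p at 0.79, let-7d-3p at 0.78 and miR-1180-3p at 0.82. With 2 libraries, likeness is only a like ratio.

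Markers of other cells that carry members of this family were listed beside these values. Erythroid cells are rich in miR-92a and miR-25. Of 5 erythroid and blood markers, 3 had an entry. miR-451a, the defining erythroid miRNA, and miR-142-3p were listed at 0 in both libraries, and miR-486-5p had 17.9 normalized reads in UM-SCC6-M and 24.6 in UM-SCC6. Of 4 pluripotent cell markers from the cluster that also holds miR-367, 3 had an entry, all listed at 0. Of 6 stromal markers, 3 were listed at 0 in both libraries, and the summed level of the list was 91.2 in UM-SCC6-M and 54.1 in UM-SCC6. Most of that sum was miR-199b-5p, with 87.2 in UM-SCC6-M and 42.0 in UM-SCC6. miR-143-3p was 2.53-fold lower, with 34 reads in UM-SCC6-M and 78 in UM-SCC6, and miR-199a-5p had 1 read in UM-SCC6-M and 13 in UM-SCC6. The stromal list thus went both ways. The endothelial miR-126-3p had 519.9 in UM-SCC6-M and 968 in UM-SCC6. What part the stromal and endothelial values have in the results was not tested.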

How the data were processed

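Small RNA libraries from 3 µg of total RNA, gel-selected at 140 to 160 bp, were made from UM-SCC6-M and UM-SCC6 (1 library each), per the labels' protocols. The submitters' processing notes name Bowtie; the sources used here give neither its version nor the genome build, miRNA release or scaling method. The authors deposited a table with 1 column of scaled read signal per library. The authors' comparison, per the file headers, gives a log2 fold change, a p-value, a q-value and a selection mark per entry, which were only copied.

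Each signal value was a whole multiple of 0.119 in UM-SCC6-M and 0.133 in UM-SCC6, within 7.16e-05 reads, and was divided by that step to recover reads. Where 1 column was listed as 0, reads came from the log2 fold change. Log2 ratios use the authors' scaling with 0.5 reads added to each library. Intervals are Clopper-Pearson at 95%, and cover counting error only. For differences between members and for arm balances they are normal 95% intervals from the standard error of the log odds ratio, in place of the planned interval of the conditional odds ratio. With 1 library a group, conditions were not tested. The ranges of seed families, the arm shifts of other hairpins and the base composition were outside the planned results. Named miRNAs are the members, the other arms, the cluster neighbours, the marker lists and the 3 nearest in ratio to miR-32-5p and to miR-92a-3p; members and lists were chosen with earlier results of these data known. Sequences are from RefSeq, and host genes from GENCODE 29. Alternatives were other scalings, floors, thresholds and added reads. The code for exact intervals and the size rule was tested on simulated data with counting error only. The trimmed mean of M-values was checked only on counts all scaled alike, and the other alternative scalings were not checked. Python 3.11.15, numpy 2.4.6, pandas 2.3.3, scipy 1.17.1 and matplotlib 3.10.9 were used.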

Additional observations from a re-analysis of the deposited data

How the results depend on the processing

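miR-32-5p stayed lower, and miR-92a-3p, miR-92b-3p and miR-25-3p higher, in UM-SCC6-M under each scaling tried, under the deposited fold changes and with 5 reads added. Scaling to total reads gave log2 ratios of -3.02 for miR-32-5p, 1.05 for miR-92a-3p, 1.06 for miR-92b-3p, 0.37 for miR-25-3p and 0.70 for the family sum. The cluster medians were then 0.28 (miR-25 neighbours) and 0.33 (miR-92a-1 neighbours). At that scaling 3 members and 42 of the 179 miRNAs were at least 2-fold apart. Without the 10 most abundant miRNAs the total gave 0.90, 0.92, 0.23 and 0.55 for miR-92a-3p, miR-92b-3p, miR-25-3p and the sum, and medians of 0.13 and 0.19. The median of ratios gave 0.85, 0.17 and 0.50 for miR-92a-3p, miR-25-3p and the sum, and 0.13 for the miR-92a-1 neighbours. The trimmed mean of M-values gave 0.43 for the sum. These are shifts of all ratios by 0.24, 0.10, 0.04 and -0.02.

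At a floor of 50 normalized reads the miR-92a-1 neighbours had a median of 0.37, and that of the miR-25 neighbours turned to -0.01. At 1.5-fold, 3 members and 78 of the 179 miRNAs were apart, and at 4-fold 1 member and 7 of the 179. With no floor, 166 of 543 miRNAs were 2-fold apart, and at a floor of 10 it was 66 of 288. At a floor of 200, 21 were apart, and the number past that floor is not given here. At each of these floors 1 member was apart, and nothing is read from these counts. Scaling to totals changed the split of higher and lower calls over all miRNAs to 22 and 20, against 13 and 23. With miR-92a-3p left out of the sum, miR-25-3p held 85.9% in UM-SCC6-M and 86.5% in UM-SCC6, miR-92b-3p 13.7% and 8.52%, and miR-32-5p 0.471% and 4.98%. Differences between members and arm balances do not depend on the scaling and stayed within their counting intervals with 5 reads added.

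No paired analysis was possible because each group had 1 library. For the same reason no library was left out. Counting intervals are narrow for the 4 members with reads and wide for miRNAs with few reads, such as miR-92a-1-5p, miR-106a-5p, miR-200c-3p and miR-203a-3p, and variation between cultures is unknown.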

Other observations

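The base composition of the members differed, with fewer G and C bases in miR-32-5p than in miR-92a-3p, and the same was looked at over the table. Over the 158 of 179 miRNAs past the floor of 50 normalized reads that matched RefSeq by name, Spearman's rho between the percentage of G and C bases and the log2 ratio was -0.03. All these points come from the same 2 libraries. Of the 12 miRNAs outside the family with no more G and C than miR-32-5p, 1 was at least 2-fold lower and 5 at least 2-fold higher in UM-SCC6-M, with a median log2 ratio of 0.40 and a lowest value of -1.61. The 43 miRNAs with at least as much as miR-92a-3p had a median of -0.09, and 6 were at least 2-fold lower and 3 at least 2-fold higher. Over all 179 miRNAs past that floor, 12.8% were at least 2-fold lower and 7.26% at least 2-fold higher. Whether the miRNAs of each class come from separate loci was not looked at, and a part of base composition in the ratios was not tested.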
